A study of Homo sapiens with 6 samples.

Results

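The cytosolic ribosomal protein genes were taken from the deposited table by symbol: RPL or RPS followed by a digit, together with RPLP0, RPLP1, RPLP2 and RPSA. They were 89 of 20026 genes. Left out were 10 genes of the RPS6K kinases, 10 pseudogenes and 1 antisense gene. Of the 89, 77 encode the standard proteins of the ribosome (the core genes), 46 in the large subunit and 31 in the small subunit. A further 8 are paralogs of a core gene, 3 are readthrough genes that join a core gene to its neighbour, and 1, RPS19BP1, carries the name of a protein it binds. RPS4Y1 and RPS4Y2 are Y-linked, and they are counted without their levels being given. The paralogs RPL10L and RPL39L have no entry in the table, and genes of the ribosome with names outside the rule are not part of this report.

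The study deleted miR-23a or miR-27a, which lie in 1 miRNA cluster, in HepG2, a human liver cancer cell line, and sequenced RNA of 3 groups with 2 libraries each. In either KO group, Cas9 and a pair of guide RNAs flanking the mature miRNA were expressed from the plasmid PX458, and edited cells were grown from single sorted cells. The control group, scramble (Scr), is labelled WT and received the plasmid without a guide. The sources used here do not say whether the libraries of a group come from different clones, from 1 clone or from repeat preparations of 1 RNA, so a p-value here measures the spread between these libraries, which may be technical. The comparisons of each KO group with Scr ask how RNA levels differ in cells edited at that miRNA, and both use the same Scr libraries, while the comparison of the KO groups with each other uses none of them. In the study's clones some other miRNAs of the cluster differed from the control as well, not all in 1 direction, and not every clone carried the same deletion on all alleles, so a KO group differs from Scr in more than the miRNA that names it. The miRNAs that were deleted have no entry in the table and were not analysed here.

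A ribosome has a small subunit, which reads the mRNA, and a large subunit, which joins amino acids, and each protein of a subunit is needed in a fixed amount relative to the others. Liver cells secrete much of the protein they make, and their ribosomal protein mRNAs are among the most abundant mRNAs of the cell. These mRNAs share short transcripts, short 3'-UTRs and a run of pyrimidines at the very start of the mRNA, the terminal oligopyrimidine (TOP) run, through which their translation is regulated together.

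The deletions remove miRNAs that read mRNAs through their seed, bases 2 to 8, so 3'-UTRs of the members were searched for the matching site. The mature sequences, from RefSeq, carry the seed in capitals.
miR-23a-3p: aUCACAUUgccagggauuucc
miR-27a-3p: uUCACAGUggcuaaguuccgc

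The cell type label joins a subtype term of breast cancer to the word liver, and the sample titles, which say HepG2, were followed. All 14 marker genes of HepG2 and hepatocytes had counts in all 6 libraries. Their summed level was 37269.8 and 44163 CPM (counts scaled to a common library size by TMM normalization) for Scr, 38511 and 36662 for miR-23a KO, and 31916 and 31791 for miR-27a KO. The most abundant of them was SERPINA1 or ALB, with 10741 to 15110.0 CPM. The sum covers markers that differed between libraries in unlike ways. ALB was at 10419 and 15110.0 CPM for Scr, 7898 and 14601 for miR-23a KO, and 2087 and 2151 for miR-27a KO, AFP at 2589 and 3913 CPM for Scr, 3808 and 6515 for miR-23a KO, and 185 and 192 for miR-27a KO and TF at 3317 and 2266 CPM for Scr, 2369 and 2065 for miR-23a KO, and 6548 and 6746 for miR-27a KO, so in miR-27a KO both libraries lay below both Scr libraries for ALB and AFP and above them for TF. The part of these differences in the results below was not tested. Of 6 markers of other lineages, 5 were in the table, and they summed to 106 to 227 CPM, nearly all of it from KRT19, which hepatoma lines express (98.9 to 224 CPM). COL1A1 was at 0 counts in 3 libraries and PTPRC had 1 or 2 counts in each library, so markers of fibroblasts and blood cells were at or near 0.

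The total count was 14891239 in Scr replicate 1 and 14405250 in Scr replicate 2. For miR-23a KO the totals were 16515261 and 15930779, and for miR-27a KO they were 15850589 and 15947308. The libraries of a group did not lie equally close together for these genes. Over the 77 core genes the median log2 ratio of replicate 1 to replicate 2 was 0.32 (SD 0.12) for the Scr pair, 1.17 (SD 0.52) for the miR-23a KO pair and -0.05 (SD 0.04) for the miR-27a KO pair. Replicate 1 held the higher value in 76 of the 77 genes for Scr, 75 for miR-23a KO and 7 for miR-27a KO. Over all 14163 genes that passed the filter on low counts the same medians were 0.01, -0.11 and 0.00. TMM itself sets the middle of all genes near 0, so the core medians are relative to that scaling, and its factors were 0.966 and 1.03 for Scr, 0.796 and 1.17 for miR-23a KO, and 1.04 and 1.04 for miR-27a KO. Scaled by library totals alone, the distance within the miR-23a KO pair is smaller for the core genes and larger for the middle of all genes. In the miR-23a KO pair 50 of 88 members, 56.8%, lay more than 2-fold apart (an absolute log2 ratio over 1), against 46.9% of all genes. In the Scr pair 1 of 88 did and in the miR-27a KO pair 0 of 88, against 8.68% and 3.16% of all genes. The squared distance between the libraries, divided by what sampling noise would give, averaged 162 over 86 members for Scr, 1741 for miR-23a KO and 10.9 for miR-27a KO (31.0, 315 and 2.47 over all genes). The miR-23a KO libraries therefore stood apart from each other, and the main results that rest on them are given with and without each one.

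The members together held 6.88% of all counts in Scr replicate 1 and 5.89% in Scr replicate 2. They held 7.51% and 4.97% in the miR-23a KO libraries, and 7.11% and 7.34% in the miR-27a KO libraries. The miR-23a KO libraries had the highest and the lowest share of the 6, with the Scr pair between them, and the miR-27a KO pair lay above the Scr pair. The mean share was 6.38% ± 0.706 (SD, n = 2) for Scr, 6.24% ± 1.80 for miR-23a KO and 7.23% ± 0.162 for miR-27a KO. The 95% Wilson interval of each share was at most 0.0257 percentage points wide, from 6.87% to 6.90% in Scr replicate 1, and covers counting error only. With 2 libraries against 2 an exact permutation test cannot reach 0.05, so the shares were not tested. A share of bulk RNA also cannot tell less of these mRNAs per cell apart from more of the other RNA. The core genes alone held 6.80% and 5.81% of the Scr libraries, 7.44% and 4.87% of miR-23a KO, and 7.02% and 7.25% of miR-27a KO.

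**Figure D1:**
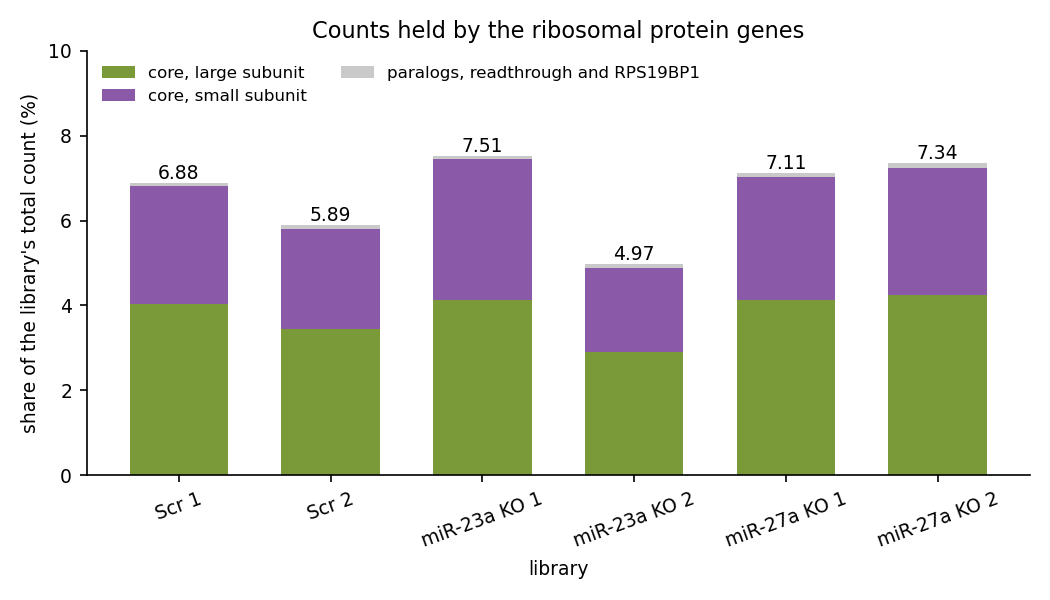
Share of each library's total count (vertical axis, percent) held by the ribosomal protein genes, in 6 bars for the 6 libraries, split into core genes of the large and small subunit and the other members. The highest bar, 7.51%, and the lowest, 4.97%, are the miR-23a KO libraries.

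The proteins of the subunits are made to match each other, and the ratio of large-subunit to small-subunit core counts shows whether their mRNAs shifted alike. This ratio was 1.46 and 1.45 for Scr, 1.25 and 1.47 for miR-23a KO, and 1.43 and 1.42 for miR-27a KO. All but 1 of the 6 libraries lay within a narrow band, and miR-23a KO replicate 1 lay below it. In that library the core genes were at a median log2 ratio of 0.61 to the Scr mean, but spread from -0.56 to 1.49 (SD 0.415). miR-23a KO replicate 2 had a median of -0.58 and a narrower spread (SD 0.199), with 1 of 77 above the Scr mean. The miR-27a KO libraries had medians of 0.12 and 0.16, with SDs of 0.198 and 0.203 on the same log2 scale.

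**Figure D2:**
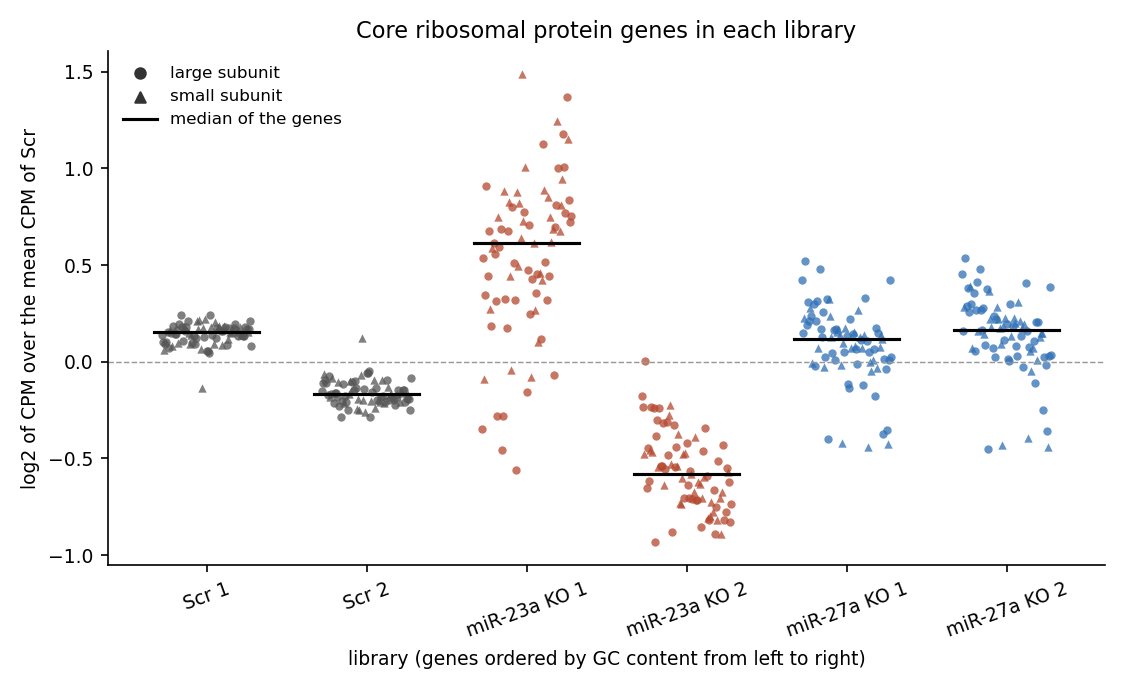
Log2 ratio of each core gene's CPM to its mean in Scr (vertical axis) in the 6 libraries (horizontal axis), 1 point per gene, with genes ordered by GC content within each library and a line at the median. miR-23a KO replicate 1 is spread from -0.56 to 1.49, and miR-23a KO replicate 2 lies almost wholly under 0.

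The distance within the miR-23a KO pair went with base composition. Spearman's correlation across genes between GC content of the transcript and the log2 ratio of replicate 1 to replicate 2 was 0.606 over 88 members for miR-23a KO, 0.259 for Scr and 0.225 for miR-27a KO. Across all 13463 genes with a reference transcript it was 0.661, 0.451 and 0.0985, so the members followed a relation that the whole transcriptome showed in the same libraries. Genes are not independent replicates, and the points of a panel share their libraries, so no p is given. In 4 bins of 22 members by GC content, the median log2 ratio in the miR-23a KO pair was 0.69, 0.93, 1.10 and 1.55 from the lowest to the highest GC. The Scr pair gave 0.21, 0.30, 0.32 and 0.34, and the miR-27a KO pair gave -0.06, -0.04, -0.06 and -0.03. The steps were thus widest in the pair whose libraries lay farthest apart. The member medians of GC content, 49.0%, and of all genes, 49.9%, were close, while member transcripts were shorter, with a median of 737 bases against 2586. The correlation of the miR-23a KO ratio with transcript length was -0.320 over the members and -0.428 over all genes.

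**Figure D3:**
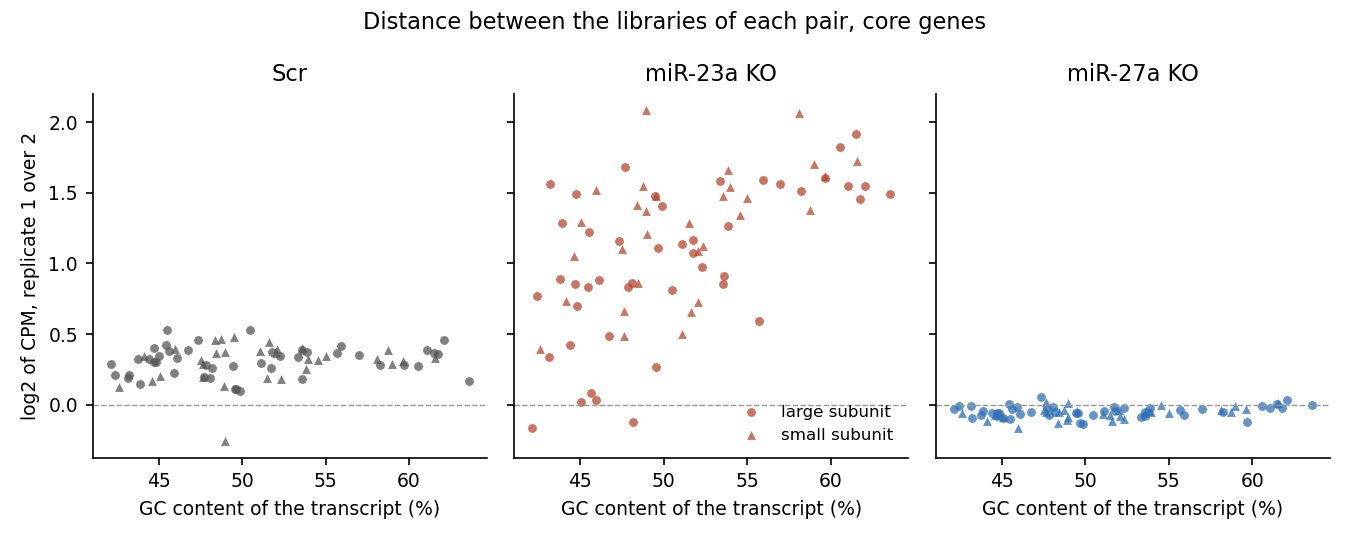
Log2 ratio of CPM in replicate 1 to replicate 2 (vertical axis) against GC content of the transcript in percent (horizontal axis) for the 77 core genes, 1 panel per group. The miR-23a KO panel climbs with GC content, and the miR-27a KO panel lies flat near 0.

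Levels were compared between genes per length, as CPM per kilobase of transcript averaged over the 6 libraries. The median was 948 CPM per kb over the core genes and 7.25 over all genes past the filter, and 77 of 77 core genes lay above that all-gene median. Of the 100 genes with the highest level per kb 46 were members, and of the highest 200, 68. RPS2, a protein at the mRNA entry side of the small subunit, was highest at 4022 CPM per kb. RPL41, the smallest protein of the ribosome, followed at 2999. Also among the 6 highest were RPL13A, which is also known for a role outside the ribosome in silencing inflammatory mRNAs, at 2364 and RPS15A at 2119.9. These levels are means over libraries that differ. RPS2 was at 4017 and 3291 CPM for Scr, 6413 and 1969 for miR-23a KO, and 4027 and 4051 for miR-27a KO, and RPL41 at 1435 and 1188 CPM for Scr, 2239.9 and 804 for miR-23a KO, and 1357 and 1416 for miR-27a KO. Both were highest in miR-23a KO replicate 1 and lowest in miR-23a KO replicate 2. The 5 members with the most counts held 20.3% of the summed CPM of the members, the first 10 held 32.1% and the first 20 held 49.5%.

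At the low end stood no core gene but the paralogs and readthrough genes, with RPL3L at 0.249 CPM per kb, RPL17-C18orf32 at 0.865, RPL22L1 at 5.50, RPS27L at 10.4, RPS10-NUDT3 at 20.5 and RPL36A-HNRNPH2 at 23.0. RPS27L has an annotated transcript of 6434 bases, nearly all of it 3'-UTR, which lowers its level per kb if shorter forms are made. The lowest core gene was RPL9, a protein of the large subunit, at 45.9 CPM per kb, singled out here after its values were seen. RPL9 was at 34.0 and 29.3 CPM for Scr, 45.9 and 26.9 for miR-23a KO, and 35.1 and 35.4 for miR-27a KO. It was the lowest core gene per kb in all 6 libraries. RPL37, the next core gene from the bottom at 78.0 CPM per kb, has an annotated transcript of 7686 bases and averaged 599.8 CPM before division by length.

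**Figure D4:**
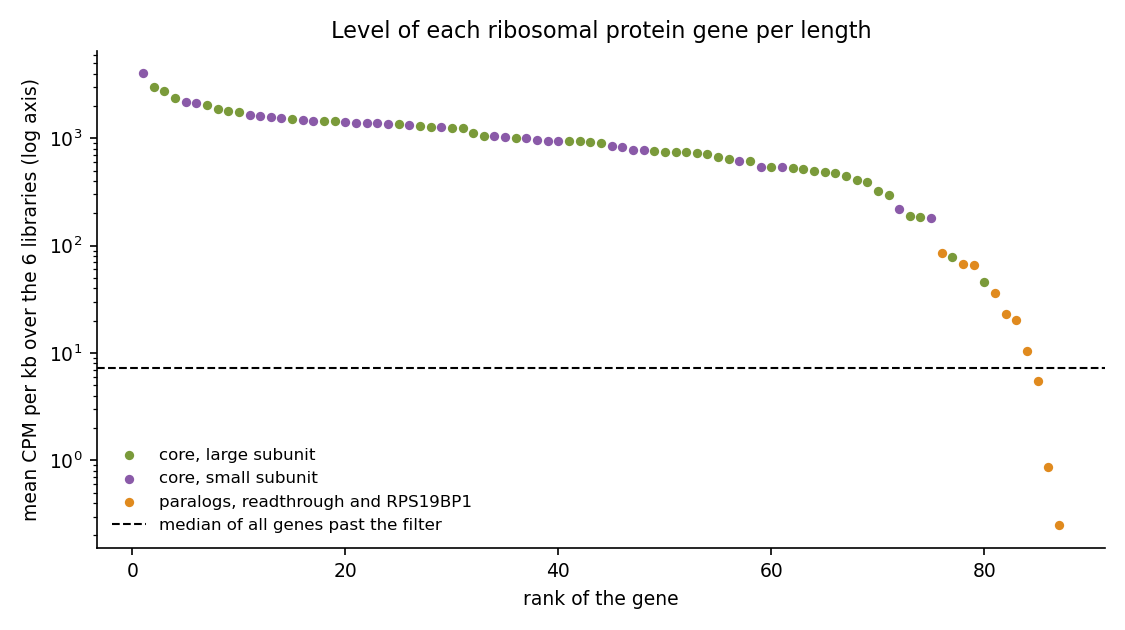
Mean CPM per kb over the 6 libraries (vertical log axis) of the 87 members that are not Y-linked, ranked from the highest (horizontal axis), with a dashed line at the median of all genes past the filter. All 77 core genes lie above the line, and the 3 members under it are a readthrough gene and paralogs.

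Differences between groups were tested in each pair of groups with the quasi-likelihood test of edgeR, and p was adjusted by Benjamini-Hochberg over all genes tested. Between miR-23a KO and Scr 88 of the 89 members passed the filter, and 0 of 88 were called at an adjusted p under 0.05, beside 0% of all 13786 genes. At the study's thresholds, more than 1.5-fold with an adjusted p under 0.001, the member count and the share of all genes were 0 and 0% as well. At an unadjusted p under 0.05 edgeR gave 0 of 88 members and 332 genes in all, and DESeq2 called 0 members and 63 genes at an adjusted p under 0.05. In 7 of 88 members both miR-23a KO libraries lay below both Scr libraries (7.95%), against 14.9% of all genes, and in 0 of 88 both lay above, against 8.87% of all genes. Both shares were under those of all genes, and for most members the miR-23a KO libraries straddled Scr. The median member log2 fold change was 0.19, beside 0.16 for all genes, and 69 of 88 members were above 0 (78.4%, against 63.0%). Without miR-23a KO replicate 1 the median was -0.50 and without miR-23a KO replicate 2 it was 0.57, so its sign rested on which library was kept. Without Scr replicate 1 it was 0.29, and without Scr replicate 2 it was 0.06. The number of members called was 1 without miR-23a KO replicate 1 (1.14%, against 10.1% of all genes), 32 without miR-23a KO replicate 2 (36.4%, against 19.9%), and 0 without either Scr library (against 0.0363% and 0.0725%). With library totals alone in place of TMM, the all-gene median moved from 0.16 to 0.06 and the member median to 0.03. A lone library is assumed in these fits to vary like the other group.

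Between miR-27a KO and Scr 87 members were tested. At an adjusted p under 0.05, 3 of 87 were called (3.45%), against 14.0% of all 13820 genes. The 3 calls were all higher in miR-27a KO, where 4.91% of all genes were called, and 0 members were called lower, where 9.12% of all genes were. At the study's thresholds 0 members were called, beside 0.0289% of all genes (4 genes). At an unadjusted p under 0.05 edgeR gave 18 of 87 members (20.7%), against 32.2% of all genes, and DESeq2 called 8 members and 2239 genes at an adjusted p under 0.05, 5 of the members higher and 3 lower. The miR-27a KO pair lay wholly above the Scr pair in 32 of 87 members (36.8%, against 32.4% of all genes), and wholly below in 7 of 87 (8.05%, against 31.9%). The count above was near the background and the count below was under it. The median member log2 fold change was 0.14, beside 0.01 for all genes, and 70 of 87 members were above 0 (80.5%, against 50.9%), or 41 of 87 without Scr replicate 2. A fold change over 1.5 in either direction was fitted for 0 of 87 members and for 25.2% of all genes, and the SD of the log2 fold changes was 0.206 over the members and 0.944 over all genes. The median was 0.30 without Scr replicate 1 and -0.02 without Scr replicate 2, and 0.16 and 0.11 without miR-27a KO replicate 1 or 2. The number of members called was 77 without Scr replicate 1 (88.5%, against 41.1% of all genes), 45 without Scr replicate 2 (51.7%, against 52.3%) and 0 without either miR-27a KO library (against 2.52% and 2.53%). These numbers take calls in both directions together. The fitted change was above 0 in 75 of 87 members without Scr replicate 1 and in 41 of 87 without Scr replicate 2. Whether the called share of the members lay under or over that of all genes thus changed with the library left out.

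Between miR-23a KO and miR-27a KO, where no Scr library is used, edgeR called 0 of 87 members at an adjusted p under 0.05 and 0 at the study's thresholds, beside 0% of all 13841 genes at either rule. At an unadjusted p under 0.05 edgeR gave 0 of 87 members and 1207 genes, and DESeq2 called 0 members and 477 genes. Both miR-23a KO libraries lay below both miR-27a KO libraries in 17 of 87 members (19.5%), near the 20.8% of all genes, and above in 1 of 87, RPS27L, against 18.7% of all genes. The median member log2 fold change was -0.01, beside 0.11 for all genes, and it was 0.02 with median-ratio size factors and -0.19 with library totals alone. Without miR-23a KO replicate 1 the median was -0.68 with 78 members called, all lower, and without miR-23a KO replicate 2 it was 0.45 with 78 called, 63 of them higher. Those 78 are 89.7% of the members, and in the same fits 61.4% and 69.7% of all genes were called. Without miR-27a KO replicate 1 or 2 it was -0.04 or 0.03, with 0 called. The direction over the members again turned with the miR-23a KO library that was kept.

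**Figure D5:**
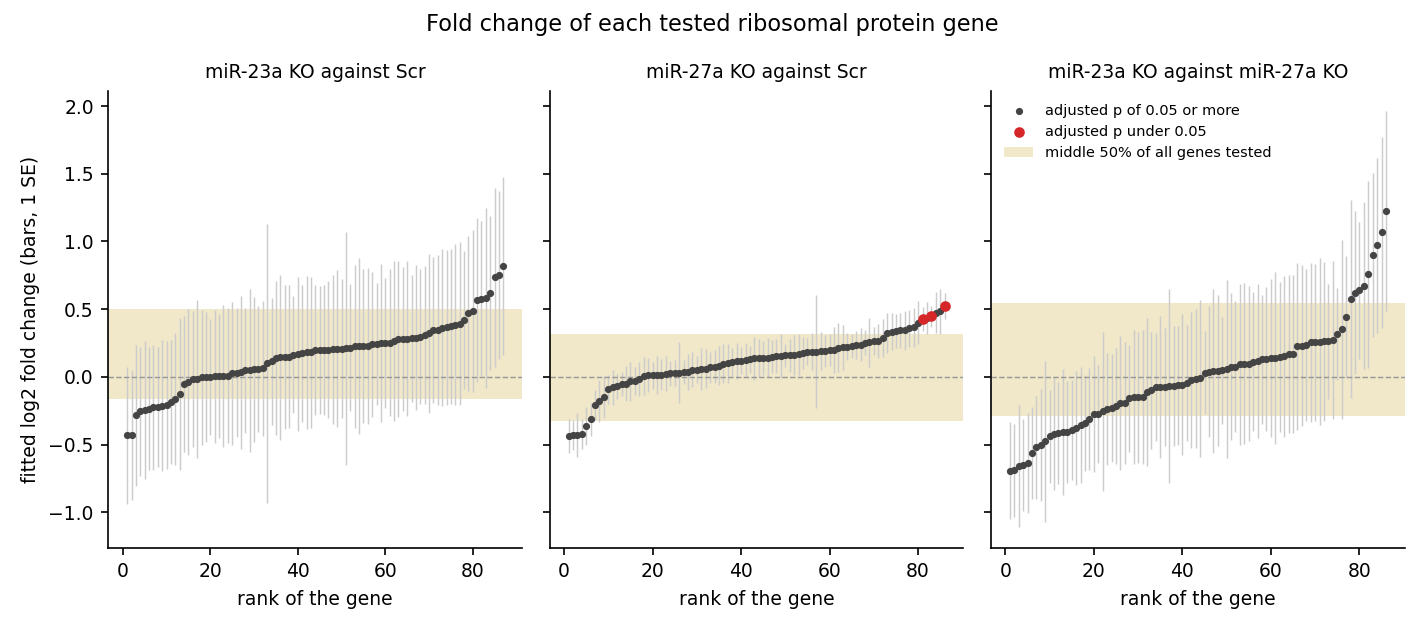
Fitted log2 fold change (vertical axis, bars of 1 SE) of the tested members without the Y-linked ones, ranked within each of the 3 comparisons (horizontal axis), over a band for the middle 50% of all genes tested. The 3 red points of miR-27a KO against Scr, RPL7, RPL7L1 and RPS10-NUDT3, are the members with an adjusted p under 0.05.

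The core gene with the lowest adjusted p in miR-27a KO was RPL7 (gene ID 6129, chr8:73290267-73295789 on GRCh38), a large-subunit protein that binds next to the 5S RNA. RPL7 was at 516 and 453 CPM for Scr, 615 and 487 for miR-23a KO, and 696 and 702 for miR-27a KO. The miR-27a KO pair lay above the Scr pair, and the miR-23a KO libraries reached from the Scr range to above it. The means were 484 ± 44.3 CPM (SD, n = 2) in Scr and 699 ± 4.42 in miR-27a KO. RPL7 rose in miR-27a KO by a log2 fold change of 0.52 (SE 0.0971, adjusted p 0.0302). Its log2 fold change lay between 0.47 and 0.59 over the 9 other settings, and it was called in 8 of them, with adjusted p from 7.0e-04 to 0.868. Without miR-27a KO replicate 1 or 2 it was not called, at log2 0.53 and 0.52. In miR-23a KO the log2 fold change was 0.24 (SE 0.451, adjusted p 1.00), and between miR-23a KO and miR-27a KO it was -0.34 (SE 0.354, adjusted p 0.853), so the KO groups were not shown to differ.

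RPL7L1 (gene ID 285855, chr6:42879618-42889925), the paralog of RPL7, acts in ribosome assembly and is not a standard part of the finished large subunit. RPL7L1 was at 220.4 and 213 CPM for Scr, 188 and 288 for miR-23a KO, and 291 and 302 for miR-27a KO. The miR-27a KO pair lay above the Scr pair, and miR-23a KO had 1 library below Scr and 1 between Scr and miR-27a KO. It rose in miR-27a KO by a log2 fold change of 0.45 (SE 0.0775, adjusted p 0.0265), from a mean of 217 ± 5.12 CPM (SD) to 296 ± 7.45. The call was lost with GC content and length corrected (log2 0.33, adjusted p 0.0589), with that correction and a replicate block (log2 0.33, adjusted p 0.0800), in 1 fit of all 6 libraries (adjusted p 0.955), and without miR-27a KO replicate 1 or 2 (adjusted p 0.300 and 0.365). As a share of the counts of both genes, RPL7L1 held 29.9% and 32.0% for Scr, 23.4% and 37.2% for miR-23a KO, and 29.5% and 30.1% for miR-27a KO, so the paralog and its core gene kept nearly the same proportion in miR-27a KO as in Scr. Per length its share was 11.1% and 12.1% in Scr and 10.9% and 11.2% in miR-27a KO.

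RPS10-NUDT3 (gene ID 100529239, chr6:34284887-34426071) is a readthrough gene whose transcripts join RPS10, a small-subunit protein, to the downstream NUDT3. It was at 52.5 and 55.5 CPM for Scr, 25.6 and 78.6 for miR-23a KO, and 72.8 and 72.6 for miR-27a KO. The miR-27a KO libraries lay above Scr, and miR-23a KO had replicate 1 below it and replicate 2 above. It rose in miR-27a KO by a log2 fold change of 0.43 (SE 0.0884, adjusted p 0.0379). The call was lost with no filter on low counts (adjusted p 0.0615), with GC content and length corrected (0.0506), with that correction and a replicate block (0.0790), in 1 fit of all 6 libraries (0.991), and without miR-27a KO replicate 1 or 2 (0.411 and 0.410), and the log2 fold change stayed between 0.34 and 0.49 over the 9 other settings. RPS10 itself was at 962 and 729.9 CPM for Scr, 1565 and 560.3 for miR-23a KO, and 929.5 and 969 for miR-27a KO, with a log2 fold change of 0.16 (SE 0.148, adjusted p 0.495). The miR-27a KO values of RPS10 overlapped with Scr, unlike those of the readthrough gene, and how reads were assigned between these overlapping genes is not given. RPL36A-HNRNPH2 joins RPL36A to the splicing factor gene HNRNPH2 and was at 11.5 and 12.1 CPM for Scr, 13.7 and 7.21 for miR-23a KO, and 15.4 and 17.6 for miR-27a KO, with a log2 fold change in miR-27a KO of 0.48 (SE 0.166, adjusted p 0.117). RPL36A, a large-subunit protein near the tRNA exit site, was at 214 and 159.8 CPM for Scr, 282 and 159 for miR-23a KO, and 261 and 260.3 for miR-27a KO, with 0.47 (SE 0.150, adjusted p 0.0972). Both lay above Scr in both miR-27a KO libraries, and neither passed the test in the main fit, while RPL36A was called in 5 of the 9 other settings and RPL36A-HNRNPH2 in 2. RPL17-C18orf32 had 0.609 to 1.88 CPM over the 6 libraries, against 493 to 715 for RPL17, and its groups overlapped.

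RPL5 and RPL11 form a particle with the 5S RNA that, when ribosome assembly fails, binds MDM2 and so protects p53. RPL5 was at 800.1 and 629 CPM for Scr, 588 and 579.9 for miR-23a KO, and 889 and 951 for miR-27a KO. RPL11 was at 1567 and 1306 CPM for Scr, 973 and 1059 for miR-23a KO, and 1618 and 1675 for miR-27a KO. For both genes the miR-23a KO libraries lay below Scr and the miR-27a KO libraries above it, and within miR-23a KO the libraries lay close together, with log2 ratios of 0.02 and -0.12 against a core median of 1.17. For RPL5 the fitted log2 fold change was -0.22 (SE 0.461, adjusted p 1.00) with miR-23a deleted and 0.36 (SE 0.137, adjusted p 0.144) with miR-27a deleted. For RPL11 the fitted log2 fold change was -0.43 (SE 0.483, adjusted p 1.00) with miR-23a deleted and 0.19 (SE 0.117, adjusted p 0.312) with miR-27a deleted. These 4 differences did not pass the test. RPL23, a large-subunit protein that also binds MDM2, was at 491 and 376 CPM for Scr, 489 and 349 for miR-23a KO, and 542 and 562 for miR-27a KO, with log2 fold changes of 0.01 (SE 0.459, adjusted p 1.00) and 0.34 (SE 0.143, adjusted p 0.167). Its miR-23a KO libraries overlapped with the Scr pair, and its miR-27a KO libraries lay above it. In miR-27a KO the log2 fold changes of RPL23 and RPL5 were 0.56 and 0.55 without Scr replicate 1, and 0.16 and 0.20 without Scr replicate 2. With 1 library left out RPL11 ran from 0.07 to 0.34 there.

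In 4 other core genes and RPL4 both miR-23a KO libraries lay below both Scr libraries as well. RPL6 and RPL14, large-subunit proteins at the solvent side, were at 764 and 654 CPM for Scr, 583 and 569 for miR-23a KO, and 847 and 859 for miR-27a KO for RPL6, and 475 and 439 CPM for Scr, 411 and 342 for miR-23a KO, and 501 and 522 for miR-27a KO for RPL14. RPL22, which lies at the exit of the peptide tunnel and is dispensable for translation in many cells, was at 639 and 524 CPM for Scr, 457 and 514 for miR-23a KO, and 778 and 796 for miR-27a KO. RPS6, the small-subunit protein that S6 kinases phosphorylate when mTOR is active, was at 1489 and 1366 CPM for Scr, 1344 and 1025 for miR-23a KO, and 1671 and 1739.8 for miR-27a KO. In all 4 the miR-27a KO libraries lay above Scr and the miR-23a KO libraries below it. Their log2 fold changes were -0.23, -0.22, -0.19 and -0.21 in miR-23a KO, each with an adjusted p of 1.00, and 0.26, 0.16, 0.43 and 0.25 in miR-27a KO, with adjusted p of 0.159, 0.261, 0.0719 and 0.138. RPL4, a large-subunit protein that lines the peptide tunnel, was at 2993 and 2299 CPM for Scr, 1926 and 1822 for miR-23a KO, and 2894 and 2962 for miR-27a KO. Its miR-27a KO libraries lay between the Scr libraries, and its fitted change in miR-23a KO was the lowest of the members at a log2 of -0.43 (SE 0.506, adjusted p 1.00). The GC content of these 5 transcripts and of RPL5 and RPL11 lay between 42.1% and 49.6%, against a member median of 49.0%. Over the 9 other settings the miR-23a KO log2 fold change was -0.52 to -0.37 for RPL4 and -0.38 to -0.19 for RPL22, GC content and length correction included, with 0 calls for either. Without miR-23a KO replicate 1 it was -0.48 and -0.12, and without miR-23a KO replicate 2 it was -0.46 and -0.35, and RPL5, RPL6, RPL11, RPL14 and RPS6 stayed under 0 in these fits too. This follows from the choice of genes whose miR-23a KO libraries both lay below Scr. RPL22 was called higher in miR-27a KO in 2 of the 9 settings, with adjusted p from 0.0200 to 0.942 over them. RPS6 was called higher there in 1 of the 9, at log2 fold changes of 0.16 to 0.32 over them.

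RPS26 and RPS15 were among the members with the largest positive log2 fold changes in miR-23a KO, and both had their high value in replicate 1 only. RPS26, a small-subunit protein at the mRNA exit channel and a gene mutated in Diamond-Blackfan anaemia, was at 379.5 and 455 CPM for Scr, 1169 and 275 for miR-23a KO, and 311 and 309 for miR-27a KO. RPS15, a small-subunit protein near the decoding site, was at 735 and 585 CPM for Scr, 1468 and 444 for miR-23a KO, and 492 and 487 for miR-27a KO. In both, miR-23a KO replicate 1 lay above the Scr pair and replicate 2 below it, and both miR-27a KO libraries lay below it. The log2 fold changes in miR-23a KO were 0.82 (SE 0.656, adjusted p 1.00) for RPS26 and 0.57 (SE 0.607, adjusted p 1.00) for RPS15. Without miR-23a KO replicate 2 they were 1.49 and 1.15 (adjusted p 0.00130 and 0.00498), and without miR-23a KO replicate 1 they were -0.55 and -0.52. Their sign in miR-23a KO thus depended on the library. RPL36, RPLP0, RPL35, RPSA, RPS27A and RPS19BP1 were also among the 10 largest, with log2 fold changes of 0.42 to 0.75 and adjusted p of 1.00. With 1 library left out they ran from -0.38 to 1.17 for RPL36, -0.41 to 1.13 for RPLP0 and -0.46 to 1.00 for RPL35. RPSA ran from -0.42 to 1.01, RPS27A from -0.22 to 0.82 and RPS19BP1 from -0.53 to 1.40. The sign of each thus changed with the library left out. Among the 10 lowest were RPL4, RPL11, RPL3, RPL12, RPL6, RPL5, RPL14, RPS6 and RPS4X, from -0.43 to -0.21. Of these only RPL12 turned sign with 1 library left out, at 0.115 without miR-23a KO replicate 2.

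Among the lowest log2 fold changes of miR-27a KO were those of RPS15 at -0.44 (SE 0.128, adjusted p 0.0834), RPS26 at -0.43 (SE 0.109, adjusted p 0.0596), RPL27 at -0.43 (SE 0.164, adjusted p 0.146), RPS28 at -0.42 (SE 0.109, adjusted p 0.0620) and RPL36 at -0.31 (SE 0.120, adjusted p 0.146). RPL27, a large-subunit protein, was at 1074 and 781 CPM for Scr, 1481 and 663 for miR-23a KO, and 704 and 679 for miR-27a KO. RPS28, a small-subunit protein that meets the mRNA at the exit channel, was at 326 and 274 CPM for Scr, 542 and 171 for miR-23a KO, and 221 and 228 for miR-27a KO. RPL36, another large-subunit protein, was at 272 and 224 CPM for Scr, 560.3 and 184 for miR-23a KO, and 191 and 209 for miR-27a KO. Each of these had both miR-27a KO libraries below both Scr libraries, and none passed edgeR's test at an adjusted p of 0.05. DESeq2 called RPS15, RPS26 and RPS28 lower, the 1 setting of the other 9 that did. Without a Scr library the log2 fold changes were -0.26 and -0.59 for RPS15, -0.55 and -0.30 for RPS26, -0.17 and -0.64 for RPL27, -0.28 and -0.54 for RPS28, and -0.16 and -0.45 for RPL36, replicate 1 left out first. Over the 9 other settings they were -0.44 to -0.26 for RPS15, -0.43 to -0.30 for RPS26, -0.43 to -0.29 for RPL27, -0.43 to -0.24 for RPS28 and -0.32 to -0.15 for RPL36. These 5 and the paralog RPS27L are among the 7 members that lay below Scr. The largest positive values beside the 3 called members, RPL36A and RPL36A-HNRNPH2 were those of RPL22 (0.43), RPL13 (0.40), RPL31 (0.37), RPL5 (0.36) and RPL23 (0.34), with adjusted p of 0.0719 to 0.167. Over the 9 other settings RPL13 and RPL31 were called in 2 each, RPL23 in 1 and RPL5 in 0. The log2 fold change there was 0.40 to 0.66 for RPL13 and 0.36 to 0.56 for RPL31. RPL13, a large-subunit protein, was at 344 and 249.9 CPM for Scr, 490.1 and 167 for miR-23a KO, and 398 and 388 for miR-27a KO, and the miR-27a KO values lay above Scr and between the miR-23a KO values. Across 87 members Spearman's correlation of the miR-27a KO log2 fold change with GC content was -0.396, and over 13193 genes it was -0.345. The part of base composition in these differences was not tested beyond the correction for GC content and length. With that correction 12 members were called (13.8%), all higher, beside 16.1% of all genes called in either direction. The share of all genes takes both directions, so it is not like for like with that of the members.

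Between the KO groups the largest positive log2 fold change, miR-23a KO over miR-27a KO, was 1.22 (SE 0.738, adjusted p 0.772) for RPS26. Without miR-23a KO replicate 1 it was -0.17, and without miR-23a KO replicate 2 1.92, each of these called, in opposite directions. The largest negative values belonged to RPL11 at -0.69 (SE 0.357, adjusted p 0.724) and RPL22 at -0.69 (SE 0.342, adjusted p 0.703). Without any 1 of the 4 libraries these 2 stayed within -0.75 to -0.63 for RPL11 and -0.78 to -0.61 for RPL22. Their direction could not turn, since for each both miR-23a KO libraries lay below both miR-27a KO libraries. RPL36A-HNRNPH2 (-0.66), RPL4 (-0.64), RPS18 (-0.50) and RPS10-NUDT3 (-0.48) were also among the 10 lowest. RPS15 (0.97), RPL36 (0.90), RPS28 (0.67), RPL27 (0.64) and RPL26L1 (0.44) were among the 10 highest. When 1 library was left out, RPS15 ran from -0.14 to 1.59, RPL36 from -0.12 to 1.49 and RPS28 from -0.39 to 1.28. RPL27 ran from -0.06 to 1.10, RPL26L1 from -0.13 to 0.85 and RPS10-NUDT3 from -1.50 to 0.115. The sign of each of these members thus turned with the library left out. RPL36A-HNRNPH2, RPL4 and RPS18 kept their sign, and their miR-23a KO libraries all lay below both miR-27a KO libraries.

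By subunit, the large-subunit core genes had a median log2 fold change of 0.16 in miR-23a KO, 0.15 in miR-27a KO and -0.07 between the KO groups (46 genes). The 31 small-subunit core genes had 0.20, 0.14 and 0.09. These medians use all libraries of a comparison. Over all members the miR-23a KO median was -0.50 without miR-23a KO replicate 1 and 0.57 without miR-23a KO replicate 2. In miR-23a KO both libraries lay below Scr in 6 of 46 large-subunit and 1 of 31 small-subunit genes, beside 14.9% of all genes, and in miR-27a KO both lay above Scr in 22 of 46 and 7 of 31, beside 32.4% of all genes. These differences between subunits were not tested.

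The acidic stalk of the large subunit, where translation factors bind, is built from RPLP0, RPLP1 and RPLP2. RPLP0 was at 387 and 306 CPM for Scr, 758 and 252 for miR-23a KO, and 319 and 339 for miR-27a KO. RPLP1 was at 1137 and 991 CPM for Scr, 1855 and 578 for miR-23a KO, and 1098 and 1118 for miR-27a KO. RPLP2 was at 837 and 746 CPM for Scr, 1337 and 475 for miR-23a KO, and 806 and 809 for miR-27a KO. In all 3 miR-23a KO replicate 1 was the highest library and miR-23a KO replicate 2 the lowest, and the miR-27a KO libraries overlapped with Scr. Their log2 fold changes in miR-27a KO were -0.08 (SE 0.131, adjusted p 0.722), 0.05 (SE 0.102, adjusted p 0.752) and 0.03 (SE 0.0946, adjusted p 0.877), in that order. Per length, RPLP2 stood at 1311 CPM per kb, RPLP1 at 944 and RPLP0 at 323. RPLP0 stood lowest of the 3, and its transcript, of 1218 bases, is close in length to that of RPLP1, of 1197. Before division by length RPLP0 was lowest too, at a mean of 393 CPM against 1130 for RPLP1 and 835 for RPLP2.

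RPS19, RPS24, RPL35A and RPS26, given above, are among the genes whose loss on 1 allele causes Diamond-Blackfan anaemia, and of these 4 all but RPL35A belong to the small subunit. RPS19 was at 892 and 682 CPM for Scr, 1255 and 483 for miR-23a KO, and 829 and 860.3 for miR-27a KO. RPL35A was at 392 and 311 CPM for Scr, 441 and 239 for miR-23a KO, and 357 and 374 for miR-27a KO. In both the miR-27a KO libraries overlapped with Scr, and miR-23a KO had replicate 1 above it and replicate 2 below. RPS24 was at 587 and 514 CPM for Scr, 747 and 471 for miR-23a KO, and 648 and 641 for miR-27a KO, with both miR-27a KO libraries above Scr, and its log2 fold change there was 0.22 (SE 0.0979, adjusted p 0.184). The log2 fold changes of RPS19 and RPL35A in miR-27a KO were 0.10 and 0.05, with adjusted p of 0.678 and 0.813. Without Scr replicate 1 RPS19 was at log2 0.31 and without Scr replicate 2 at -0.08.

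Several members are known for acting on chosen mRNAs or outside the ribosome. RPSA, which is also the laminin receptor, was at 1714 and 1227 CPM for Scr, 2956 and 1061 for miR-23a KO, and 1661 and 1718 for miR-27a KO. RPL10A, which has been found on only part of the ribosomes of a cell, was at 805 and 656 CPM for Scr, 982 and 446 for miR-23a KO, and 806 and 831 for miR-27a KO. RPL38, which promotes translation of Hox mRNAs in the embryo, was at 338 and 313 CPM for Scr, 452 and 209 for miR-23a KO, and 301 and 328 for miR-27a KO. In each of them the miR-23a KO libraries were the highest and the lowest of the 6. RPS25, needed by some viral and cellular internal entry sites, was at 576 and 424 CPM for Scr, 603 and 382 for miR-23a KO, and 529 and 574 for miR-27a KO. RPS27A is made as a fusion with ubiquitin and was at 506 and 406 CPM for Scr, 808 and 377 for miR-23a KO, and 571 and 587 for miR-27a KO. The miR-27a KO libraries lay above Scr for RPL10A and RPS27A and overlapped with it for RPSA, RPL38 and RPS25. Their log2 fold changes in miR-27a KO were 0.20, 0.16, -0.05, 0.14 and 0.34 for RPSA, RPL10A, RPL38, RPS25 and RPS27A, with adjusted p of 0.475, 0.412, 0.728, 0.602 and 0.137. None of the 5 was called in the main fit, and in miR-23a KO their adjusted p was 1.00. With 1 library left out the miR-27a KO value ran from -0.03 to 0.46 for RPSA and from 0.02 to 0.32 for RPL10A. For RPL38 it ran from -0.11 to 0.01, and for RPS25 from -0.07 to 0.38. RPS19BP1, which binds RPS19 and the deacetylase SIRT1 and is not a ribosomal protein, was at 48.7 and 55.0 CPM for Scr, 137 and 34.7 for miR-23a KO, and 50.6 and 51.1 for miR-27a KO, with 0.75 (SE 0.618, adjusted p 1.00) in miR-23a KO. Its high value too was that of miR-23a KO replicate 1, and without that library the log2 fold change was -0.53.

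The paralogs differ in how they relate to the core gene. RPL3L replaces RPL3 in heart and skeletal muscle, and here it had 2 to 14 counts a library, which is 0.00578% to 0.0350% of the counts of the pair. RPL22L1, which can take the place of RPL22, held 1.23% to 3.55% of the pair's counts, the highest in miR-23a KO replicate 1. RPL26L1 held 2.54% to 4.79% beside RPL26. For these 3 pairs the core gene therefore carried nearly all of the counts. RPL36AL, beside RPL36A, held 22.1% and 30.5% for Scr, 18.8% and 27.5% for miR-23a KO, and 19.3% and 19.0% for miR-27a KO. RPS27L, a p53 target in other cells, held 8.14% to 16.1% beside RPS27, and per length 0.492% to 1.06%. RPL36AL was at 60.8 and 70.3 CPM for Scr, 65.5 and 60.1 for miR-23a KO, and 62.2 and 61.1 for miR-27a KO, nearly level over the 6 libraries, with log2 fold changes of 0.00, -0.09 and 0.03 in the 3 comparisons. RPS27L was at 73.0 and 63.6 CPM for Scr, 84.8 and 62.4 for miR-23a KO, and 56.9 and 61.6 for miR-27a KO, with -0.21 (SE 0.111, adjusted p 0.253) in miR-27a KO, below both Scr libraries. RPS27 was at 628 and 454 CPM for Scr, 957 and 326 for miR-23a KO, and 596 and 610.5 for miR-27a KO, with 0.15 (SE 0.163, adjusted p 0.562). RPL26L1 was at 22.0 and 25.6 CPM for Scr, 38.0 and 19.3 for miR-23a KO, and 22.6 and 19.6 for miR-27a KO, and RPL26 at 671 and 508 CPM for Scr, 903 and 499 for miR-23a KO, and 725 and 755 for miR-27a KO. The miR-27a KO libraries of RPL26 lay above Scr, and those of RPL26L1 overlapped with it. RPL3 was at 3018 and 2338 CPM for Scr, 2551 and 1691 for miR-23a KO, and 2808 and 2881 for miR-27a KO, RPL10, which tops the large subunit late in assembly, at 1829 and 1369.5 CPM for Scr, 2595 and 862 for miR-23a KO, and 1412 and 1484 for miR-27a KO, and RPL39, in the peptide tunnel, at 207 and 187 CPM for Scr, 315 and 129 for miR-23a KO, and 228 and 235 for miR-27a KO. The miR-27a KO libraries of RPL3 and RPL10 overlapped with Scr, and those of RPL39 lay above it with 0.23 (SE 0.0882, adjusted p 0.146).

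By the seeds given above, the site of miR-23a-3p is AATGTGA and that of miR-27a-3p is ACTGTGA, searched on the transcript strand of the longest annotated 3'-UTR (GENCODE 29). Of 88 members with a 3'-UTR, 10 held AATGTGA (11.4%), against 19.3% of 15891 genes, and 3 held ACTGTGA (3.41%), against 16.7%. In the shortest 3'-UTR of a transcript with the whole coding part the counts were 5 and 1, so the other sites lie in longer annotated forms. The longest annotated 3'-UTR had a median of 500 bases over the members and 1224 over all genes. In the shortest form the medians were 62.5 and 775 bases. The 10 members with AATGTGA were RPL10, RPL18, RPL27A, RPL31, RPL37, RPL37A, RPS3, RPL14, RPS27L and RPS19BP1, and the 3 with ACTGTGA were RPL4, RPL31 and RPS14. Shown are the site of RPS19BP1 (chr22:39529093-39529115), which is the member with a site and the largest log2 fold change in miR-23a KO, and that of RPL4 (chr15:66498217-66498239), which is the member whose shortest 3'-UTR holds the miR-27a-3p site, with the site in capitals.
RPS19BP1: ttacaataAATGTGAacccaaga
RPL4: taaagtccACTGTGAgtcctacc

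Members with and without a site are set side by side without a test. In miR-23a KO the median log2 fold change was 0.15 over the 10 members with a miR-23a-3p site (-0.22 to 0.75) and 0.20 over the 78 without. In miR-27a KO it was 0.14 over the 3 with a miR-27a-3p site (0.02 to 0.37) and 0.13 over the 84 without. These medians use all libraries of a comparison. Over all members the miR-23a KO median was -0.50 without miR-23a KO replicate 1 and 0.57 without miR-23a KO replicate 2. A site is a match of letters and was not tested for binding, and each KO was read against the site of the miRNA that names it only.

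The RefSeq promoter table held an entry for 71 of the 89 members. A TOP run was counted where the gene start is C and at least 4 more C or T follow without a break, on the gene's own strand. Of the 71 members 45 had such a run at the annotated start (63.4%), against 4.04% of 27305 promoter entries. With a start placed up to 5 bases either side the counts were 54 of 71 (76.1%) and 21.1%. The windows printed here reach from 15 bases before the start to 15 after it on GRCh38.p14, with the run from the start onward in capitals, for RPL36A (chrX:101390996-101391025), RPL7L1 (chr6:42879601-42879630), RPL22 (chr1:6199581-6199610) and RPL13 (chr16:89560642-89560671), which had the highest log2 fold changes in miR-27a KO among members with an entry, beside RPL36A-HNRNPH2 with the same start as RPL36A, and for RPS6 (chr9:19380222-19380251), whose phosphorylation reads out the pathway that acts on these runs. RPL7L1 and RPL13 have no run of at least 5 at the annotated start.
RPL36A: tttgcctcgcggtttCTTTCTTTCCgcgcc
RPL7L1: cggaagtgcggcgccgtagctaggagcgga
RPL22: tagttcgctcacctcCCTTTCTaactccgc
RPL13: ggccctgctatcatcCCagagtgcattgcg
RPS6: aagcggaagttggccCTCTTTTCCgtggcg

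Of the 4 members with the lowest log2 fold changes in miR-27a KO, RPS15 (chr19:1438381-1438410), RPS26 (chr12:56041903-56041932), RPL27 (chr17:42998404-42998433) and RPS28 (chr19:8321481-8321510), none had a run of at least 5 at the annotated start, and they are set out for comparison in the same way, singled out after their values were seen. RPS28 has a run of 9 pyrimidines that begins within 5 bases of the start.
RPS15: tgcgcaggcgcggacCaaagcgatctcttc
RPS26: gagacacataacctcgattttcttccgcca
RPL27: ccggggtgaaaggttagcggaagtgtcctt
RPS28: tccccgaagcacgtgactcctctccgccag

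Members with and without a run were compared by their medians, with no test. In miR-27a KO the median log2 fold change was 0.13 over 45 members with a run (-0.31 to 0.48) and 0.14 over 25 without (-0.44 to 0.45), and 41 of the 45 and 17 of the 25 lay above 0. In miR-23a KO it was 0.18 and 0.16, and between the KO groups -0.04 and -0.07. These values use all libraries, and the miR-23a KO median over all members turned sign with the library kept. With a run within 5 bases of the start the medians were 0.13 over 54 members and 0.15 over the 16 without in miR-27a KO, 0.15 and 0.21 in miR-23a KO, and -0.06 and 0.04 between the KO groups. No match at an annotated start says only that these letters are not there, since start sites can differ in HepG2 cells.

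Other mRNAs with a TOP run, the elongation and initiation factors and their like, were taken as a list of 19 symbols, of which 18 were in the table. In miR-27a KO 6 of the 18 were called higher and 0 lower, beside 4.91% and 9.12% of all genes, and the median log2 fold change was 0.26, against 0.01. The 6 were EIF4B at 0.69 (SE 0.103, adjusted p 0.0193), EIF3E at 0.61 (SE 0.0875, adjusted p 0.0180), NPM1 at 0.52 (SE 0.0927, adjusted p 0.0279), EEF1B2 at 0.49 (SE 0.112, adjusted p 0.0464), HNRNPA1 at 0.46 (SE 0.0827, adjusted p 0.0289) and PABPC1 at 0.35 (SE 0.0815, adjusted p 0.0499). EIF4B, an initiation factor that helps unwind mRNA, was at 535 and 462 CPM for Scr, 282 and 552 for miR-23a KO, and 794 and 817 for miR-27a KO, with both miR-27a KO libraries above all others. In miR-23a KO edgeR called 0 of the 18, with a median of -0.07 against 0.16, and between the KO groups 0 of 18, with -0.24 against 0.11. These medians were -0.26 and -0.46 without miR-23a KO replicate 1, and without miR-23a KO replicate 2 they were 0.25 and -0.05. Of these 18, 15 were called higher and 1 lower without Scr replicate 1, 11 and 2 without Scr replicate 2, and 0 without either miR-27a KO library, while 41.1%, 52.3%, and 2.52% or 2.53% of all genes were called in these fits. DESeq2 called 6 higher, median-ratio size factors and a replicate block gave 4 each, GC content and length correction gave 9, and 1 fit of all 6 libraries gave 0. No test compared this list with the ribosomal proteins.

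Among 19 regulators of these mRNAs, from mTOR and its partners to LARP1, which binds the TOP run, 1 was called lower and 0 higher in miR-27a KO, and edgeR called 0 in the other comparisons. The call was AKT1S1, an inhibitor within mTOR complex 1, at 203 and 223 CPM for Scr, 589 and 148 for miR-23a KO, and 139 and 136 for miR-27a KO, with a log2 fold change of -0.63 (SE 0.0854, adjusted p 0.0156) in miR-27a KO. Its miR-27a KO libraries lay below all others. The call was lost with GC content and length corrected, with that correction and a replicate block, in 1 fit of all 6 libraries, and without miR-27a KO replicate 1 or 2. LARP1 was at 276 and 259 CPM for Scr, 149 and 255 for miR-23a KO, and 294 and 287 for miR-27a KO and MTOR at 180.2 and 194 CPM for Scr, 80.6 and 171 for miR-23a KO, and 201 and 203 for miR-27a KO. Both were lowest in miR-23a KO replicate 1. MYC, which drives transcription of ribosome genes, was at 532 and 343 CPM for Scr, 251 and 288 for miR-23a KO, and 301 and 295 for miR-27a KO, with -0.56 (SE 0.210, adjusted p 0.142) in miR-27a KO and -0.63 (SE 0.472, adjusted p 1.00) in miR-23a KO. Its KO libraries all lay below both Scr libraries, and neither difference passed the test.

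Ribosome biogenesis factors, 53 genes of rRNA processing and subunit assembly, had 4 called higher and 2 lower in miR-27a KO (median 0.07 against 0.01). In that fit 4.91% of all genes were called higher and 9.12% lower, which stands beside each list of this paragraph. For the biogenesis factors edgeR called 0 in miR-23a KO (median 0.33 against 0.16) and 0 between the KO groups (0.23 against 0.11). The higher 4 were NCL, MDN1, GNL3 and HEATR1, with log2 fold changes of 0.66, 1.44, 0.61 and 0.38, and the lower 2 were UTP4 at -0.84 and BOP1 at -0.40. Of 15 symbols for RNA polymerase I and its factors 13 were in the table, and 1, RRN3, which recruits the polymerase, was called higher in miR-27a KO at 0.86 (SE 0.108, adjusted p 0.0134). A list of 9 genes taken as chaperones of ribosomal proteins includes NAP1L1, which is also on the list of other TOP mRNAs. Of these 9 genes 0 were called by edgeR in any of the 3 comparisons in the main fits. Their medians were 0.31 in miR-23a KO, -0.01 in miR-27a KO and 0.34 between the KO groups. With library totals only 1 was called higher in miR-27a KO. The median there was 0.02 without Scr replicate 1 and -0.04 without Scr replicate 2. Mitochondrial ribosomal proteins, 78 genes, had 1 called higher and 6 lower in miR-27a KO, with a median of -0.06, and proteasome subunits, 38 genes of another abundant complex, 3 and 2, with a median of 0.02. In miR-23a KO edgeR called 0 of either, with medians of 0.38 and 0.24, and between the KO groups 0 of either, with 0.33 and 0.15. In 1 fit of all 6 libraries 0 genes of any list in this paragraph were called in miR-27a KO. With GC content and length corrected, the biogenesis factors had 4 higher and 2 lower there. The mitochondrial ribosomal proteins then had 1 and 2, and the proteasome subunits 3 and 0. In the fit without miR-23a KO replicate 1 the medians in miR-23a KO were -0.25 for the mitochondrial ribosomal proteins, -0.17 for the proteasome subunits, -0.16 for the chaperones and 0.28 for the biogenesis factors, and without miR-23a KO replicate 2 they were 0.57, 0.35, 0.18 and 0.10. Between the KO groups the same medians were -0.20, -0.17, 0.06 and 0.19 without miR-23a KO replicate 1, and 0.60, 0.25, 0.46 and 0.01 without miR-23a KO replicate 2. For miR-27a KO against Scr the counts of calls were as follows. Without either miR-27a KO library the lists outside the members had 0 calls in this comparison, but for 1 mitochondrial ribosomal protein gene called lower. Without Scr replicate 1 the biogenesis factors had 10 higher and 13 lower, the mitochondrial ribosomal proteins 8 and 15, the proteasome subunits 8 and 7 and the regulators 2 and 4, and without Scr replicate 2 these were 20 and 14, 13 and 26, 12 and 12, and 8 and 7, in fits that called 41.1% and 52.3% of all genes. Without miR-23a KO replicate 2 the mitochondrial ribosomal proteins had 33 called higher in miR-23a KO, and without miR-23a KO replicate 1 they had 1 higher and 1 lower, beside 19.9% and 10.1% of all genes called in either direction. The counts of calls on the lists given here thus changed with the library left out.

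The 10 ribosomal protein pseudogenes of the table held 1631 and 1167 counts for Scr, 2126 and 1606 for miR-23a KO, and 1815 and 1780 for miR-27a KO, at most 0.0129% of a library. RPSAP58 held most of these. Whole numbers, within 0.001, made up 8.99% to 12.4% of the members' values in a library and 42.6% to 51.0% of all values.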

How the data were processed

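RNA was sequenced from HepG2 cells in 3 groups of 2 libraries. The deposited table holds expected counts per gene made by the authors before deposit, although its column headers say FPKM: the columns sum to the depth of a library, differ between libraries and hold many whole numbers. The submitters' processing notes name HISAT, StringTie, Cufflinks and GATK, and which of them made the counts, with the genome build, is not given in the sources used here. Values were rounded before fitting. Each pair of groups was compared in edgeR 4.0.16 (filterByExpr, TMM, quasi-likelihood fit and test, Benjamini-Hochberg adjustment), with DESeq2 1.42.0, limma 3.58.1 and R 4.3.3, and summaries used Python 3.11.15, pandas 2.3.3 and SciPy 1.17.1. The pipeline was tested on simulated data with 200 changed genes. A gene was called at an adjusted p under 0.05, or with a fold over 1.5 and an adjusted p under 0.001, the thresholds of the study. Shares have 95% Wilson intervals, which at these depths are at most 0.0257 percentage points wide. Lengths, GC content and 3'-UTRs were read from GENCODE release 29, and gene starts and miRNAs from RefSeq on GRCh38.p14. A transcript was matched for 89 members and 17915 genes, a 3'-UTR for 88 and 15891, and a promoter for 71 and 15000. Named in each comparison were the members past the threshold, the 10 largest and 10 lowest log2 fold changes, the 6 highest and 6 lowest levels per kb, and members listed for their role, and the text gives part of them. The members and the lists of other genes (TOP mRNAs, regulators, biogenesis factors, RNA polymerase I, chaperones, mitochondrial ribosomal proteins, proteasome subunits and cell markers) were chosen with earlier results of these data known. Alternatives were another normalization, test and filter, 1 fit of all 6 libraries, a replicate block, a correction for GC content and length by loess (span 0.5), other denominators of the share, and leaving out each library.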

Additional observations from a re-analysis of the deposited data

Results flagged for a closer look

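In 6 members both miR-23a KO libraries lay below both Scr libraries while both miR-27a KO libraries lay above them, which is an opposite side of the same control in the KO groups. The log2 fold changes of miR-23a KO over miR-27a KO were RPL5 at -0.65 (adjusted p 0.733), RPL6 at -0.56 (adjusted p 0.772), RPL11 at -0.69 (adjusted p 0.724), RPL22 at -0.69 (adjusted p 0.703), RPS6 at -0.52 (adjusted p 0.800) and RPL14 at -0.44 (adjusted p 0.817), by the quasi-likelihood test of edgeR with Benjamini-Hochberg adjustment. That test compares the KO groups directly, and 0 of the 6 passed it with all libraries. Each of the 6 was called lower in the 2 fits that leave out a miR-23a KO library, which called 61.4% and 69.7% of all genes, and in neither fit that leaves out a miR-27a KO library. DESeq2 called 0 members in that comparison as well, and at an unadjusted p under 0.05 edgeR gave 0. The sides are read against the same Scr libraries in both comparisons, so they are not independent of each other. Of 88 members 6 had this pattern, or its mirror image, and of 14163 genes 859 had it, which is 6.82% and 6.07%, so the share of the members was near that of all genes. Both miR-23a KO libraries lay below both miR-27a KO libraries in 17 of 87 members, beside 20.8% of all genes tested. No cause of the pattern was tested.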

How the results depend on the processing

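The number of members called between miR-23a KO and Scr was 0 by edgeR in 8 other settings and 0 by DESeq2, and so it was between miR-23a KO and miR-27a KO. Between miR-27a KO and Scr it was 3, and it was 6 with library totals only, 8 with DESeq2, 12 with GC content and length corrected, 9 with that correction and a replicate block, 4 with the block alone, and 0 in 1 fit of all 6 libraries, where the spread within miR-23a KO enters the test. In these settings 13.0%, 16.2%, 16.1%, 20.1%, 16.2% and 0.452% of all genes were called, in that order. The sample titles number the replicates and do not say whether the numbers pair libraries of different groups. Across 14163 genes the correlation of replicate differences was 0.149 between Scr and miR-23a KO, 0.0103 between Scr and miR-27a KO, and 0.0173 between the KO groups. Among the 77 core genes replicate 1 was higher in 76 for Scr, 75 for miR-23a KO and 7 for miR-27a KO. These values do not settle whether the libraries are paired.

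With 1 library left out, the lone library is assumed to vary like the other group. The number called then ranged from 0 to 32 for miR-23a KO against Scr, from 0 to 77 for miR-27a KO against Scr, and from 0 to 78 for miR-23a KO against miR-27a KO. The 32 came without miR-23a KO replicate 2, the 77 without Scr replicate 1, and 78 without either miR-23a KO library. In these fits 19.9%, 41.1%, and 61.4% or 69.7% of all genes were called. The median member log2 fold change ranged from -0.50 (without miR-23a KO replicate 1) to 0.57 (without miR-23a KO replicate 2) for miR-23a KO against Scr, from -0.025 (without Scr replicate 2) to 0.30 (without Scr replicate 1) for miR-27a KO against Scr, and from -0.68 to 0.45 (without miR-23a KO replicate 1 or 2) for miR-23a KO against miR-27a KO. The other settings gave 0.03 to 0.20, 0.13 to 0.27, and -0.19 to 0.02. The cause was not tested.

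The mean share was 7.78% for Scr and 8.72% for miR-27a KO, up from 6.38% and 7.23%, once the 50 most abundant other genes were taken out of each library total, which makes the total smaller. For miR-23a KO it was 7.58%. With 1 library left out it ranged from 5.89% to 6.88% for Scr, 4.97% to 7.51% for miR-23a KO, and 7.11% to 7.34% for miR-27a KO. Of the members named, 7 of 44 changed sign in a setting with all libraries between miR-23a KO and Scr, 5 of 40 between miR-27a KO and Scr, and 9 of 43 between the KO groups. Without 1 library the numbers were 33, 16 and 29. Alternatives planned for FPKM values were not run, since the values are counts.

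With 2 libraries a group, the test rests on very few degrees of freedom, and whether they are clones or repeat preparations is not known. Depth limits the members with few counts, such as RPL3L with 2 to 14 a library, while the members' share has a counting error far below the distance between libraries.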
